A study of Homo sapiens with 10 samples.

Results

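Hypoxia and glycolysis transcripts were followed as a set of 10 RNAs, chosen by name: ADM, VEGFA, CA9, ENO1, LDHA, SLC2A1, NDRG1, PDK1 and BNIP3 among 57773 rows of long RNA, and hsa-miR-210-5p among 612 miRNAs. All 9 genes passed the filter on low counts, and the miRNA was above 0 in every library. The RNA came from BEAS-2B, a line of human bronchial epithelial cells that was immortalised. One set of stable lines carried a vector for TAF1C behind the pCMV6 promoter, and the other carried the empty vector (eV), with G418 selection and LHC9 medium containing fetal bovine serum in both. TAF1C is a subunit of SL1, the complex that brings RNA polymerase I to ribosomal RNA genes. There were 3 libraries labelled TAF1C and 2 eV libraries of long RNA, and 3 and 2 of small RNA, so 10 libraries in all. The labels give no oxygen level and do not say whether a line was 1 clone or a pool, or whether replicates came from separate cultures, so p-values measure only the spread between these libraries, which may be technical.

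Hypoxia-inducible factors (HIF) are made of an oxygen-sensitive alpha subunit such as HIF1A or EPAS1 and a stable partner, ARNT or ARNT2. When oxygen is short, they escape degradation and bind DNA at core letters such as ACGTG. Prolyl hydroxylases of the EGLN family mark the alpha subunits for removal when oxygen is present. Classical targets take up glucose, turn it into lactate, hold pyruvate out of the mitochondrion, clear mitochondria, export acid and call in blood vessels. The miRNA miR-210 is a HIF target as well and is best known for lowering mitochondrial iron-sulfur assembly through its 3p arm.

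Both arms of miR-210 come from 1 hairpin inside MIR210HG on the minus strand of chromosome 11, and their sequences are given here. The sequences below are from RefSeq (GRCh38.p14), at chr11:568150-568171 for the 5p arm, chr11:568112-568133 for the 3p arm and chr11:568089-568198 for the hairpin. Capitals mark the seed, bases 2 to 8, in the arms, and both arms in the hairpin.
hsa-miR-210-5p: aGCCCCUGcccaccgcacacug
hsa-miR-210-3p: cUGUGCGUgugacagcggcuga
MIR210 hairpin: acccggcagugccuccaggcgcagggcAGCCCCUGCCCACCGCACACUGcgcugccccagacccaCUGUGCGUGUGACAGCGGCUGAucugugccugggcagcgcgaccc
The seeds of the arms differ, and 0 other mature human miRNAs in RefSeq share either one. The tables have a row for the 5p name and none for the 3p name. Of their 612 names 451 end in 5p, 19 in 3p and 142 in neither, and 5 of the 421 hairpins with both arms in RefSeq and a name in the data have rows for both. In the libraries labelled TAF1C, hsa-miR-1-5p (383, 99.6 and 119) and hsa-miR-1-3p (383, 102 and 122) were nearly alike. Those of hsa-miR-548ap differed (331, 351 and 296 for 5p, 254, 211 and 222 for 3p). The sequence of the 5p arm thus does not show which reads its row counted. The arm is therefore given as the tables name it and was not checked.

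The long RNA libraries held 34212883 to 37533366 gene counts when labelled TAF1C and 22809601 and 28476151 in eV, and the small RNA libraries had miRNA signal totals of 20493894 to 22035505 when labelled TAF1C and 17820818 and 18160854 in eV. The TAF1C transcript itself was 64.0, 59.0 and 67.0 CPM (counts scaled to the size of each library) in the libraries labelled TAF1C, against 64.4 and 77.7 CPM in eV, and the log2 fold change was -0.17 ± 0.13 (SE; adjusted p = 0.353 by edgeR). It did not go up with the label, so the label is used here as a name only. Of 18402 genes tested, 2922 rose and 4158 fell in the libraries labelled TAF1C, or 2269 and 5021 when scaled by library totals alone, which moved the median log2 fold change of all genes to -0.33, against -0.10 with TMM scaling. Over genes, the SD of the log2 difference was 0.383 to 0.416 between libraries labelled TAF1C, and 1.08 between eV 1 and eV 2. Summed markers of bronchial epithelium, with KRT7, KRT8 and KRT18 foremost, reached 1330 to 1445 CPM in the libraries labelled TAF1C and 365 and 360 CPM in eV, while KRT19 and CDH1 did not pass, EPCAM fell (0.0570 to 0.433 CPM when labelled TAF1C, 14.7 and 1.1 CPM in eV), and the basal cell markers KRT5 and TP63 were too low to test. The 12 photoreceptor markers summed to 7.18 to 10.6 CPM in the libraries labelled TAF1C and to 2237 and 1602 CPM in eV, and the 8 neuron markers to 5.05 to 5.79 CPM when labelled TAF1C and to 530 and 292 CPM in eV. Sums of fibroblast markers (31.2 to 45.8 CPM when labelled TAF1C, 83.7 and 24.2 CPM in eV), endothelial markers (29.4 to 30.4 CPM when labelled TAF1C, 75.0 and 16.8 CPM in eV) and haematopoietic markers (24.9 to 30.7 CPM when labelled TAF1C, 50.6 and 35.8 CPM in eV) were highest in eV 1, and no marker found was at 0 in every library. EPCAM passed the filter on low counts only through the eV libraries, so it could only be called as a fall. The part of these markers in the results that follow was not tested.

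Of the 9 genes, ADM and ENO1 rose in the libraries labelled TAF1C, PDK1 fell, and VEGFA, CA9, LDHA, SLC2A1, NDRG1 and BNIP3 did not pass the test (edgeR's quasi-likelihood test, Benjamini-Hochberg adjusted p under 0.05). Over all genes tested 15.9% rose and 22.6% fell, so 2 and 1 of 9 are near the background. Without TAF1C 1, 2 or 3, 5.84% to 6.48% of all genes rose and 10.7% to 11.3% fell. Those shares are the background for the lists below in the same settings. The median log2 fold change of the 9 was 0.00, against -0.10 for all genes, and the median size of the change was 0.60, against 0.62. The miRNA fell 2.65-fold. Within the 3 libraries labelled TAF1C the highest value was between 1.03 (ENO1) and 1.11 (NDRG1) times the lowest for 8 genes, and 1.32 times for CA9, whose counts were low. The eV pair was wider, with 7 of the 9 higher in eV 1 than in eV 2.

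**Figure D1:**
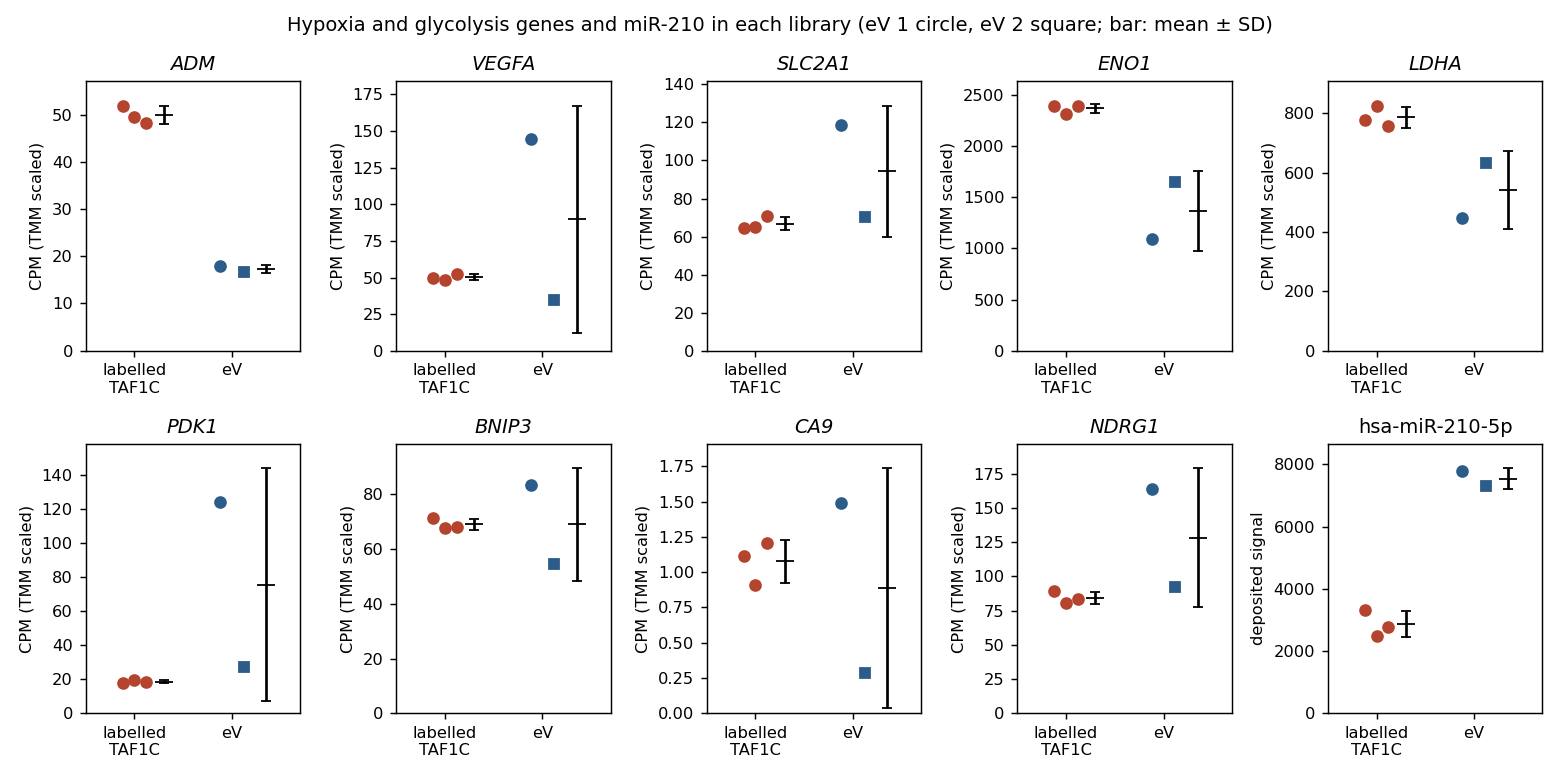
Level of each of the 9 genes (CPM with TMM scaling) and of hsa-miR-210-5p (deposited signal) in every library, on linear axes from 0; points are libraries, with the 3 labelled TAF1C on the left of each panel and eV 1 (circle) and eV 2 (square) on the right, and bars are the mean ± SD. ADM, ENO1 and LDHA lay above both eV libraries, PDK1, NDRG1 and the miRNA below both, and the eV points stood far apart for VEGFA and PDK1.

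Among the secreted factors, ADM rose and VEGFA did not pass. ADM (ENSG00000148926) encodes adrenomedullin, a vasodilator peptide. It had 51.9, 49.6 and 48.1 CPM in the libraries labelled TAF1C, against 17.9 and 16.6 CPM in eV. All 3 libraries labelled TAF1C were above both eV libraries, and both groups were tight. The means were 49.9 ± 1.91 CPM (SD, n = 3) and 17.3 ± 0.905 CPM (n = 2), a rise of 2.89-fold (log2 fold change 1.53 ± 0.12 (SE), edgeR adjusted p = 0.00080). Set against eV 1 alone the change was 1.44 ± 0.12, and against eV 2 alone 1.52 ± 0.12 (log2, SE). With a single eV library the SE rests on the spread of the libraries labelled TAF1C (SD 0.383 to 0.416). The eV pair was wider over all genes (SD 1.08), and such an SE does not include that spread. In bulk RNA, more cells of a type and more RNA per cell cannot be told apart.

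VEGFA (ENSG00000112715), the vascular growth factor that HIF raises in most tissues, had 49.8, 48.5 and 52.3 CPM in the libraries labelled TAF1C, against 145 and 34.6 CPM in eV. The libraries labelled TAF1C stood between the eV libraries, of which eV 1 was 4.18 times eV 2. The means were 50.2 ± 1.95 CPM (n = 3) and 89.6 ± 77.8 CPM (n = 2), with a log2 fold change of -0.84 ± 0.54 (edgeR adjusted p = 0.261). Against eV 1 alone it was -1.56 ± 0.08, and against eV 2 alone it was 0.47 ± 0.10. The direction for VEGFA therefore depended on which eV library was used.

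Among the partners of these ligands, 10 of 16 genes were tested, and 3 rose and 4 fell, with a median log2 fold change of -0.26. NRP1, a co-receptor for VEGF, had 111, 112 and 106 CPM in the libraries labelled TAF1C, against 37.3 and 27.3 CPM in eV, a log2 rise of 1.76 ± 0.17 (edgeR adjusted p = 0.00125). VEGFC and PGF, related ligands, rose by 2.89 ± 0.34 and 0.98 ± 0.16 (edgeR adjusted p = 0.00246 and 0.00643), and FLT4, the receptor for VEGFC, fell by 3.10 ± 0.38 (edgeR adjusted p = 0.00284). FLT4 was at 1.51, 1.21 and 2.01 CPM in the libraries labelled TAF1C, against 9.55 and 17.5 CPM in eV. The adrenomedullin receptor CALCRL had 10 to 36 counts in every library and was not tested, and ADM2 and RAMP3 were too low to test as well. The median was 1.51 without eV 1 and 0.02 without eV 2, but over 8 genes in each. FLT1 and RAMP2, which fell with all libraries, did not pass the filter there. Both were below 1 CPM in every library labelled TAF1C. In eV, FLT1 had 30.4 and 1.03 CPM, and RAMP2 had 1.75 and 1.95 CPM. With all libraries they passed the filter on low counts only through the eV libraries, so they could only be called as falls. Both are in the count and the median of the list with all libraries. Without TAF1C 1, 2 or 3 the list had 3 raised and 1 to 2 lowered. The median was 0.21 with limma voom.

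Of the genes of glucose uptake and the last steps of glycolysis, SLC2A1 did not pass, ENO1 rose, and LDHA lay above eV in every library without passing the test. SLC2A1 (ENSG00000117394) encodes the glucose transporter GLUT1. It had 64.6, 65.0 and 70.8 CPM in the libraries labelled TAF1C, against 119 and 70.1 CPM in eV. Only eV 1 stood apart, and the groups overlapped. The log2 fold change was -0.50 ± 0.23 (edgeR adjusted p = 0.132), -0.86 ± 0.09 against eV 1 alone and -0.13 ± 0.09 against eV 2 alone. Its antisense transcript SLC2A1-AS1 held at most 3.41% of the counts of SLC2A1. SLC2A3, the neuronal glucose transporter GLUT3, had 3.48, 2.59 and 2.97 CPM in the libraries labelled TAF1C, against 28.7 and 4.41 CPM in eV, and fell in log2 by 2.46 ± 0.72 (edgeR adjusted p = 0.0427). The change was -0.61 without eV 1 and -3.28 without eV 2. The call of SLC2A3 was lost without each library labelled TAF1C (edgeR adjusted p = 0.116 to 0.153).

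ENO1 (ENSG00000074800) encodes alpha enolase, which makes phosphoenolpyruvate. It had 2388, 2317 and 2395 CPM in the libraries labelled TAF1C, against 1090 and 1644 CPM in eV. The groups did not overlap. The means were 2367 ± 42.9 CPM (n = 3) and 1367 ± 391 CPM (n = 2), a rise of 1.73-fold (log2 fold change 0.79 ± 0.24, edgeR adjusted p = 0.0463). The rise was 1.09 ± 0.06 against eV 1 alone and 0.46 ± 0.06 against eV 2 alone. This call lay close to the threshold and was lost without TAF1C 1, 2 or 3 (edgeR adjusted p = 0.172, 0.157 and 0.177). Leaving out any of these libraries cut the calls over all genes from 7080 to between 3095 and 3142. The ENO1 call was also lost with RLE scaling, which takes median ratios to a common library (edgeR adjusted p = 0.0594). It was lost with no filter on low counts (0.163) and with the looser filter filterByExpr (0.146). The 4 ENO1 pseudogenes held 14 to 18 counts in the libraries labelled TAF1C, and 169 and 14 counts in eV, at most 0.576% of the ENO1 counts of a library. ENO1-AS1 and ENO1-IT1, transcribed from the same locus, held at most 0.522%. The sources used here do not say how reads shared between such genes were counted or whether strand was used.

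The other enolases fell. ENO2, the neuronal enolase, had 14.8, 14.9 and 14.2 CPM in the libraries labelled TAF1C, against 276 and 128 CPM in eV, a log2 fold change of -3.79 ± 0.33 (edgeR adjusted p = 0.000965). ENO3, the muscle enolase, had 8.38, 8.85 and 8.50 CPM in the libraries labelled TAF1C, against 19.4 and 25.8 CPM in eV, a log2 fold change of -1.40 ± 0.19 (edgeR adjusted p = 0.00398). ENO1 thus took 99.0%, 99.0% and 99.1% of the counts of the 3 enolases in the libraries labelled TAF1C, against 78.7% and 91.5% in eV. These shares are of counts, not corrected for transcript length. The shares did not overlap, but 3 libraries against 2 cannot give a two-sided exact permutation p under 0.2, which is the value found. There were 7 such family shares. Neuron markers, given above, were high in the same eV libraries as ENO2.

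LDHA (ENSG00000134333), the lactate dehydrogenase subunit that favours lactate, had 776, 826 and 757 CPM in the libraries labelled TAF1C, against 447 and 634 CPM in eV. The groups did not overlap. The log2 fold change was 0.54 ± 0.20 (edgeR adjusted p = 0.0754), 0.78 ± 0.07 against eV 1 alone and 0.24 ± 0.07 against eV 2 alone. LDHA passed with upper quartile scaling (edgeR adjusted p = 0.0494) and with DESeq2 (adjusted p = 0.0253). LDHB, the subunit that favours pyruvate, had 669, 695 and 665 CPM in the libraries labelled TAF1C, against 298 and 690 CPM in eV, and did not pass (log2 fold change 0.45 ± 0.35, edgeR adjusted p = 0.345). The LDHA share of both subunits was 53.7%, 54.3% and 53.2% in the libraries labelled TAF1C, against 60.0% and 47.9% in eV, so the libraries labelled TAF1C stood between the eV libraries (exact permutation p = 1). The 6 LDHA pseudogenes held at most 1.24% of LDHA counts.

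Around these members, 26 of the other 30 glycolysis enzymes and transporters were tested, and 7 rose and 3 fell, with a median log2 fold change of 0.17. The 3 that fell were ENO2, ENO3 and SLC2A3. SLC16A3, the lactate exporter MCT4 and a known HIF target, had 905, 770 and 849 CPM in the libraries labelled TAF1C, against 211 and 202 CPM in eV, and rose in log2 by 2.03 ± 0.16 (edgeR adjusted p = 0.00071). PFKP, a phosphofructokinase, had 540, 509 and 538 CPM in the libraries labelled TAF1C, against 282 and 225 CPM in eV, a rise of 1.06 ± 0.16 (edgeR adjusted p = 0.00504). HK1, GPI, ALDOA, GAPDH and PGAM1 also rose, by 0.65 to 0.84 on the log2 scale. The calls of GPI, ALDOA, GAPDH and PGAM1 were lost without each library labelled TAF1C (edgeR adjusted p = 0.0515 to 0.136), while HK1 kept its call without each of them. Scaling by library totals turned the list to 7 raised and 7 lowered with a median of -0.06. The median was 0.18 without eV 1 and 0.23 without eV 2. The list had 3 raised and 2 lowered without TAF1C 1, 2 or 3.

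**Figure D2:**
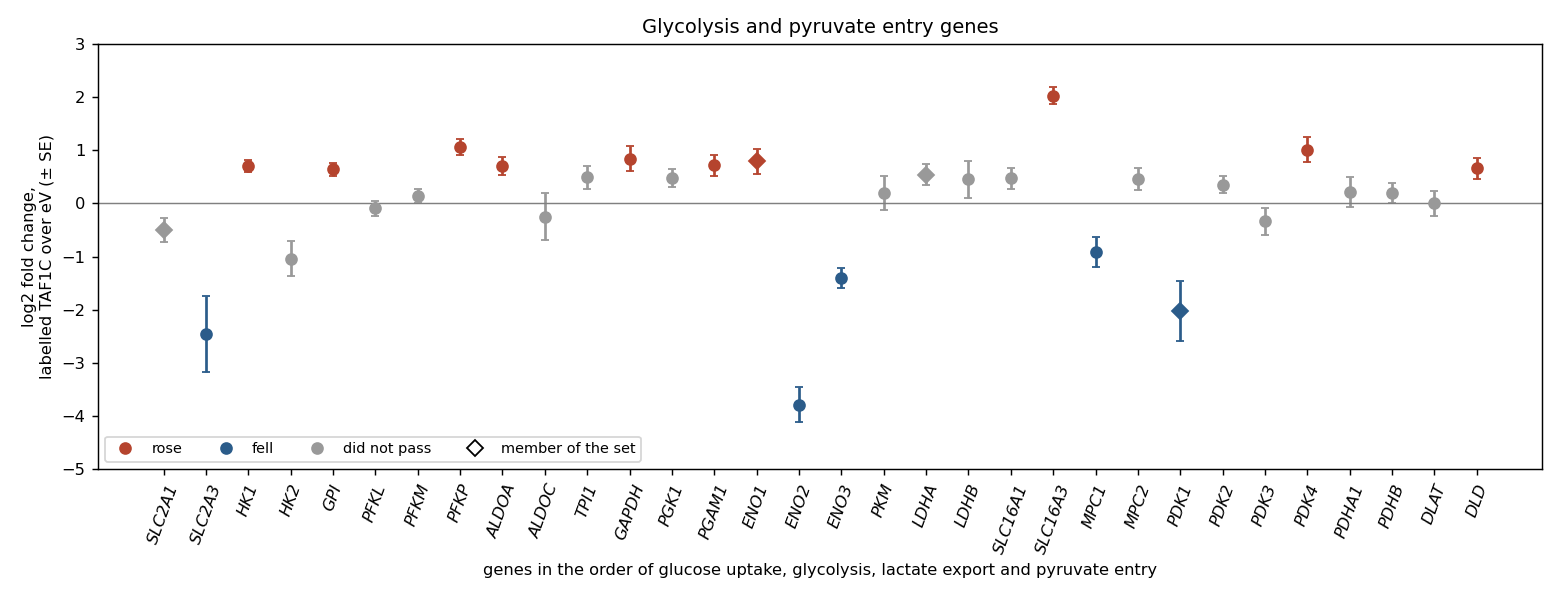
Log2 fold change (libraries labelled TAF1C over eV, vertical axis, ± SE) of genes in the order of glucose uptake, glycolysis, lactate export and pyruvate entry (horizontal axis); diamonds are members of the set, red rose, blue fell and grey did not pass. ENO1 at 0.79 stands beside ENO2 at -3.79 and ENO3 at -1.40, and PDK1 at -2.02 beside PDK4 at 1.01.

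PDK1 fell. PDK1 (ENSG00000152256) is a pyruvate dehydrogenase kinase, which switches off the enzyme that admits pyruvate to the citric acid cycle. It had 17.9, 19.6 and 18.5 CPM in the libraries labelled TAF1C, against 124 and 27.4 CPM in eV. The groups did not overlap, but eV 1 was 4.53 times eV 2. The means were 18.7 ± 0.851 CPM (n = 3) and 75.6 ± 68.3 CPM (n = 2), a level 4.05-fold lower in the libraries labelled TAF1C (log2 fold change -2.02 ± 0.57, edgeR adjusted p = 0.0377). Most of that size came from eV 1: the change was -2.76 ± 0.09 against eV 1 alone and -0.62 ± 0.12 against eV 2 alone. The call was lost without TAF1C 1, 2 or 3 (edgeR adjusted p = 0.119, 0.130 and 0.118) and with limma voom (adjusted p = 0.0994).

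Among the other kinases of the family, PDK4 had 9.98, 9.77 and 8.07 CPM in the libraries labelled TAF1C, against 4.72 and 4.48 CPM in eV, and rose in log2 by 1.01 ± 0.24 (edgeR adjusted p = 0.0211). PDK2 and PDK3 did not pass, with log2 fold changes of 0.35 ± 0.16 and -0.33 ± 0.26 (edgeR adjusted p = 0.122 and 0.346). PDK1 accordingly took 30.5%, 33.9% and 32.4% of the counts of PDK1 to PDK4 in the libraries labelled TAF1C, against 77.7% and 48.1% in eV (exact permutation p = 0.2, the smallest possible). The shares did not overlap.

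Among 14 genes of pyruvate entry, all tested, 4 rose and 1 fell, with a median log2 fold change of 0.37. Besides PDK4 these included PDP1, a phosphatase that reverses the kinases (0.46 ± 0.11, edgeR adjusted p = 0.0203), and PC, pyruvate carboxylase (0.61 ± 0.16, edgeR adjusted p = 0.0324). MPC1, a subunit of the mitochondrial pyruvate carrier, fell by 0.91 ± 0.28 (edgeR adjusted p = 0.0481). The calls of PDK4, PDP1, PC and MPC1 were each lost without any 1 of the libraries labelled TAF1C (edgeR adjusted p between 0.0719 and 0.165). The list had 0 raised and 0 lowered without TAF1C 1, 2 or 3. Its median was 0.04 without eV 1 and 0.55 without eV 2.

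BNIP3 (ENSG00000176171), a mitochondrial receptor for the autophagy of mitochondria, was level. It had 71.3, 67.7 and 68.0 CPM in the libraries labelled TAF1C, against 83.4 and 54.4 CPM in eV. The libraries labelled TAF1C again stood between the eV libraries. The means were 69.0 ± 2.0 CPM (n = 3) and 68.9 ± 20.5 CPM (n = 2), with a log2 fold change of 0.00 ± 0.19 (edgeR adjusted p = 0.992), whose sign turned with the scaling (-0.25 by library totals, -0.080 by upper quartile). It was -0.31 ± 0.09 against eV 1 alone and 0.28 ± 0.09 against eV 2 alone. BNIP3L, its paralog, had 69.7, 78.3 and 65.5 CPM in the libraries labelled TAF1C, against 115 and 115 CPM in eV, and fell by 0.69 ± 0.12 (edgeR adjusted p = 0.00774). That call was lost without TAF1C 1 or 3 (edgeR adjusted p = 0.0564 and 0.0546). BNIP3 took 50.6%, 46.4% and 51.0% of the counts of both genes in the libraries labelled TAF1C, against 42.0% and 32.1% in eV (exact permutation p = 0.2, the smallest possible). The 4 BNIP3 pseudogenes held at most 0.80% of its counts.

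Of 10 partners of BNIP3 and mitophagy genes tested, 4 rose and 3 fell, with a median log2 fold change of 0.37. PINK1, the kinase that marks damaged mitochondria, rose by 1.15 ± 0.15 (edgeR adjusted p = 0.00344). SQSTM1, an autophagy adaptor, rose by 1.18 ± 0.14 (edgeR adjusted p = 0.00258). BCL2, the survival protein that binds BNIP3, had 3.31, 2.35 and 3.40 CPM in the libraries labelled TAF1C, against 15.7 and 27.2 CPM in eV, and fell by 2.82 ± 0.32 (edgeR adjusted p = 0.00226). The list had 2 raised and 4 lowered by library totals. Its median was -0.01 without eV 1 and 0.49 without eV 2. Without TAF1C 1, 2 or 3 the list had 2 raised and 1 to 2 lowered.

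CA9 (ENSG00000107159) encodes carbonic anhydrase IX, a membrane enzyme used as a marker of hypoxia, and it was near the lower limit of detection. It had 39, 31 and 39 counts, or 1.11, 0.912 and 1.21 CPM, in the libraries labelled TAF1C, against 40 and 8 counts, or 1.49 and 0.284 CPM, in eV. The 95% exact Poisson intervals, which cover counting error only, were 0.620 to 1.65 CPM over the libraries labelled TAF1C, 1.06 to 2.02 CPM in eV 1 and 0.123 to 0.560 CPM in eV 2. The interval of eV 2 lay below all others, and the libraries labelled TAF1C stood between the eV libraries. CA9 did not pass (log2 fold change 0.28 ± 0.69, edgeR adjusted p = 0.767). The log2 fold change was -0.0125 by library totals, -0.50 ± 0.51 against eV 1 alone and 1.84 ± 0.65 against eV 2 alone.

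CA12, another membrane carbonic anhydrase induced by HIF, had 6.62, 6.94 and 8.66 CPM in the libraries labelled TAF1C, against 5.54 and 341 CPM in eV. Only eV 2 was high. The log2 fold change of -4.55 ± 1.39 passed the test (edgeR adjusted p = 0.0473) but was 0.39 without eV 2, and the call was lost without each library labelled TAF1C (edgeR adjusted p = 0.136 to 0.165). Of 10 genes of carbonic anhydrases and acid export tested, 1 rose (SLC16A3) and 2 fell (CA12 and SLC4A4, a bicarbonate transporter, by 2.40 ± 0.68, edgeR adjusted p = 0.0386), with a median log2 fold change of 0.06, which was -0.20 by library totals. The median was 0.33 without eV 1, where 8 genes were tested, and 0.39 without eV 2, where 9 were. SLC4A4 lost its call without each library labelled TAF1C (edgeR adjusted p = 0.0969 to 0.143). It had 0.656, 0.647 and 1.02 CPM in the libraries labelled TAF1C, against 6.80 and 1.42 CPM in eV. It passed the filter on low counts only through the eV libraries, so it could only be called as a fall. SLC4A4 was not tested without eV 1 or without eV 2.

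NDRG1 (ENSG00000104419), a stress-responsive gene that slows growth and spread in many carcinoma lines, had 89.2, 80.5 and 83.2 CPM in the libraries labelled TAF1C, against 164 and 92.2 CPM in eV. The groups did not overlap, though the lower eV library was close. The log2 fold change was -0.60 ± 0.24 (edgeR adjusted p = 0.0990), -0.99 ± 0.08 against eV 1 alone and -0.19 ± 0.09 against eV 2 alone. NDRG2 had 1.40, 1.06 and 2.32 CPM in the libraries labelled TAF1C, against 17.2 and 16.0 CPM in eV, and fell by 3.38 ± 0.37 (edgeR adjusted p = 0.00206). NDRG4 fell by 0.65 ± 0.14 (edgeR adjusted p = 0.0172), a call lost without each library labelled TAF1C (0.0738 to 0.0995), and NDRG3 did not pass (-0.25 ± 0.13, edgeR adjusted p = 0.175). Of the 5 other genes of the family and its kinases 2 fell, with a median log2 fold change of -0.25. That median was -0.43 without eV 1 and -0.17 without eV 2, and 1 gene fell without TAF1C 1, 2 or 3. Within the family NDRG1 took 61.5%, 58.5% and 58.4% of counts in the libraries labelled TAF1C, against 65.2% and 50.1% in eV (exact permutation p = 0.8).

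**Figure D3:**
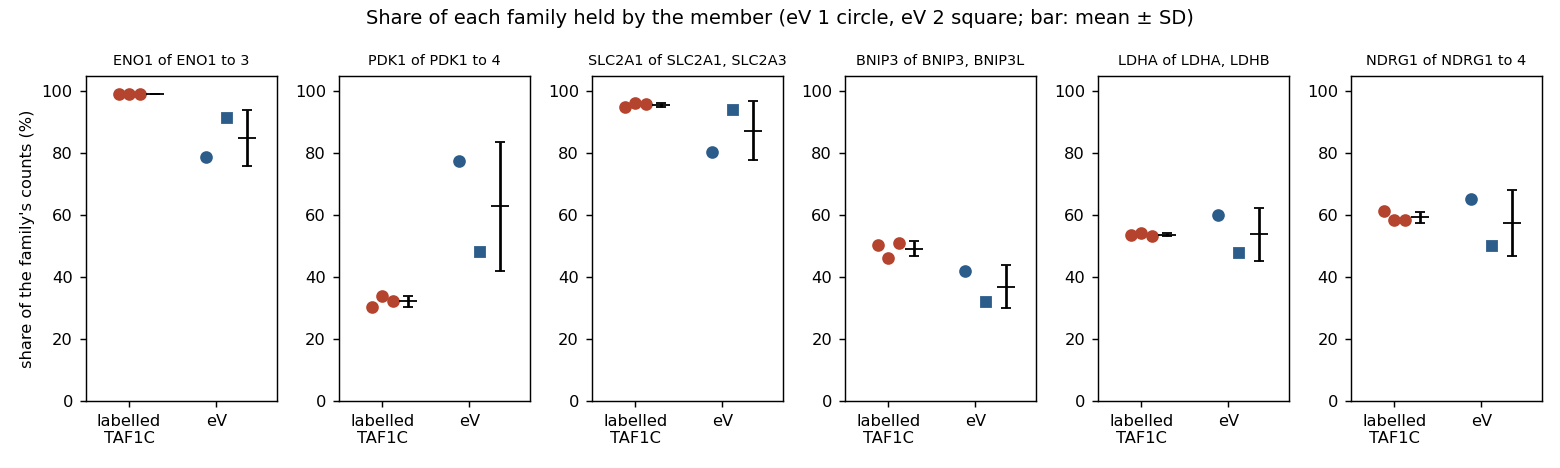
Share of its family's counts (percent, not corrected for length) held by each of 6 members, with 1 point per library, the 3 labelled TAF1C on the left of each panel and eV 1 (circle) and eV 2 (square) on the right, and bars for the mean ± SD. The shares of ENO1, SLC2A1 and BNIP3 were above both eV libraries, that of PDK1 was below both (30.5% to 33.9%, against 77.7% and 48.1% in eV), and those of LDHA and NDRG1 stood between them.

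The remaining shares followed the same layout. SLC2A1 held 94.9%, 96.2% and 96.0% of the counts of SLC2A1 and SLC2A3 in the libraries labelled TAF1C, against 80.5% and 94.1% in eV (exact permutation p = 0.2, the smallest possible). CA9 held 14.4%, 11.6% and 12.2% of the counts of CA9 and CA12 in the libraries labelled TAF1C, against 21.2% and 0.0834% in eV (exact permutation p = 0.8), so eV 2 was almost all CA12. The 95% Wilson interval of the 7 shares reached at most 5.79 percentage points to either side, for CA9, and it covers counting error only.

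The miRNA fell in the small RNA libraries. The row hsa-miR-210-5p had a signal of 3324, 2483 and 2790 in the libraries labelled TAF1C, against 7773 and 7293 in eV. All 3 libraries labelled TAF1C were below both eV libraries, which lay close together, at a ratio of 1.07. The means were 2866 ± 426 (SD, n = 3) and 7533 ± 339 (n = 2), 2.65-fold lower in the libraries labelled TAF1C (log2 fold change -1.40 ± 0.12 on log2(signal + 1), limma adjusted p = 2.45e-05). Of the 338 miRNAs tested 19.2% fell and 21.0% rose, 30.8% had all 3 libraries labelled TAF1C below both eV libraries, and 10 fell by more on this scale than miR-210. It ranked 109th, 121st and 119th of 612 miRNAs by signal in the libraries labelled TAF1C, and 86th and 88th in eV. Its part of the signal summed over all miRNA rows was 0.0155%, 0.0113% and 0.0136% in the libraries labelled TAF1C, against 0.0436% and 0.0402% in eV. Some rows had near-equal signal, such as hsa-miR-103a-1-5p and hsa-miR-103a-2-5p (440913 and 442312 in TAF1C 1). Reads may thus count more than once in that sum. Against eV 1 alone the change of miR-210 was -1.45 ± 0.16, and against eV 2 alone -1.36 ± 0.16. Unlike VEGFA or PDK1, the miRNA thus gave nearly the same value with either eV library. The small RNA eV libraries were close over miRNAs in general, their log2 differences having an SD of 0.275. Pairs of small RNA libraries labelled TAF1C gave 0.257 to 0.486, while the eV pair of long RNA gave 1.08. The closeness of the eV values is therefore not particular to miR-210. With totals made equal the change of miR-210 was -1.65, and that scaling left 40 miRNAs raised and 127 lowered, against 71 and 65 as deposited.

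The host transcript changed in the same direction as the miRNA, but its groups overlapped and it did not pass. MIR210HG (ENSG00000247095) had 2.57, 2.76 and 4.24 CPM in the libraries labelled TAF1C, against 14.0 and 3.98 CPM in eV. The third library labelled TAF1C (137 counts) was above eV 2 (112 counts), so the groups overlapped at low counts, and eV 1 was 3.52 times eV 2. The log2 fold change was -1.50 ± 0.56 (edgeR adjusted p = 0.0822), -2.17 ± 0.23 against eV 1 alone and -0.39 ± 0.31 against eV 2 alone.

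Of 19 genes reported elsewhere as targets of miR-210, mostly for the 3p arm, 17 were tested, and 1 rose and 4 fell, with a median log2 fold change of 0.32. PTPN1, a tyrosine phosphatase, had 123, 122 and 121 CPM in the libraries labelled TAF1C, against 58.8 and 76.5 CPM in eV, and rose by 0.85 ± 0.14 (edgeR adjusted p = 0.00767). MNT, a repressor of MYC targets, fell by 1.27 ± 0.14, NPTX1, a neuronal pentraxin, by 2.42 ± 0.29, and E2F3, a cell cycle factor, by 0.93 ± 0.15 (edgeR adjusted p = 0.00196, 0.00255 and 0.00649). ISCU, the iron-sulfur scaffold protein and the target most often studied, had 46.0, 46.1 and 46.8 CPM in the libraries labelled TAF1C, against 26.5 and 38.7 CPM in eV, and did not pass (0.51 ± 0.18, edgeR adjusted p = 0.0754; named after its values were seen). The median of the list was -0.13 without eV 1 and 0.63 without eV 2, so its direction turned with the eV library.

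The factors upstream were mixed. HIF1A had 298, 319 and 296 CPM in the libraries labelled TAF1C, against 154 and 191 CPM in eV, and rose by 0.82 ± 0.14 (edgeR adjusted p = 0.00894). That call was lost without TAF1C 1, 2 or 3, narrowly (edgeR adjusted p up to 0.0524). EPAS1, which encodes HIF-2 alpha, had 343, 326 and 331 CPM in the libraries labelled TAF1C, against 130 and 156 CPM in eV, and rose by 1.22 ± 0.14 (edgeR adjusted p = 0.00204). HIF alpha subunits are controlled mainly at the protein level, which was not measured here. EGLN3, a prolyl hydroxylase that HIF itself induces, had 1.31, 0.941 and 1.18 CPM in the libraries labelled TAF1C, against 3.94 and 29.6 CPM in eV, and fell by 3.87 ± 0.81 (edgeR adjusted p = 0.0152, but 0.0621 to 0.0821 without each library labelled TAF1C). ARNT2, the neural partner of the alpha subunits, had 3.28, 2.26 and 2.81 CPM in the libraries labelled TAF1C, against 41.8 and 37.4 CPM in eV, and fell by 3.83 ± 0.21 (edgeR adjusted p = 0.000318). EP300, a coactivator, fell by 0.95 ± 0.12 and SIAH2, a ligase that degrades prolyl hydroxylases, rose by 1.33 ± 0.17 (edgeR adjusted p = 0.0032 and 0.00346). Of these 15 regulators 4 rose and 5 fell, with a median log2 fold change of 0.06 that turned to -0.07 without eV 1, -0.06 without eV 2 and -0.16 by library totals. There were 2 raised and 3 lowered without TAF1C 1, 2 or 3.

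Among 32 other HIF target genes tested, 11 rose and 10 fell, with a median log2 fold change of 0.28, or 0.05 by library totals. The median was 0.59 without eV 1 and 0.35 without eV 2, over 31 genes in each. Without TAF1C 1 there were 10 raised and 6 lowered. HMOX1, heme oxygenase, had 39.0, 38.6 and 41.1 CPM in the libraries labelled TAF1C, against 4.94 and 5.62 CPM in eV, and rose by 2.90 ± 0.15 (edgeR adjusted p = 0.000281). LOX, a collagen cross-linking oxidase, and PLOD1, a collagen lysyl hydroxylase, rose by 2.57 ± 0.14 and 1.36 ± 0.10 (edgeR adjusted p = 0.00031 and 0.000715). PPFIA4, RORA, KDM3A and MXI1 were among those that fell, by 4.37 ± 0.44, 5.92 ± 0.63, 1.29 ± 0.11 and 1.14 ± 0.13 in log2. RORA had 1.91, 2.15 and 2.04 CPM in the libraries labelled TAF1C, against 199 and 48.1 CPM in eV. A further gene of the list that fell passed the filter only through the eV libraries, so it could only be called as a fall.

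**Figure D4:**
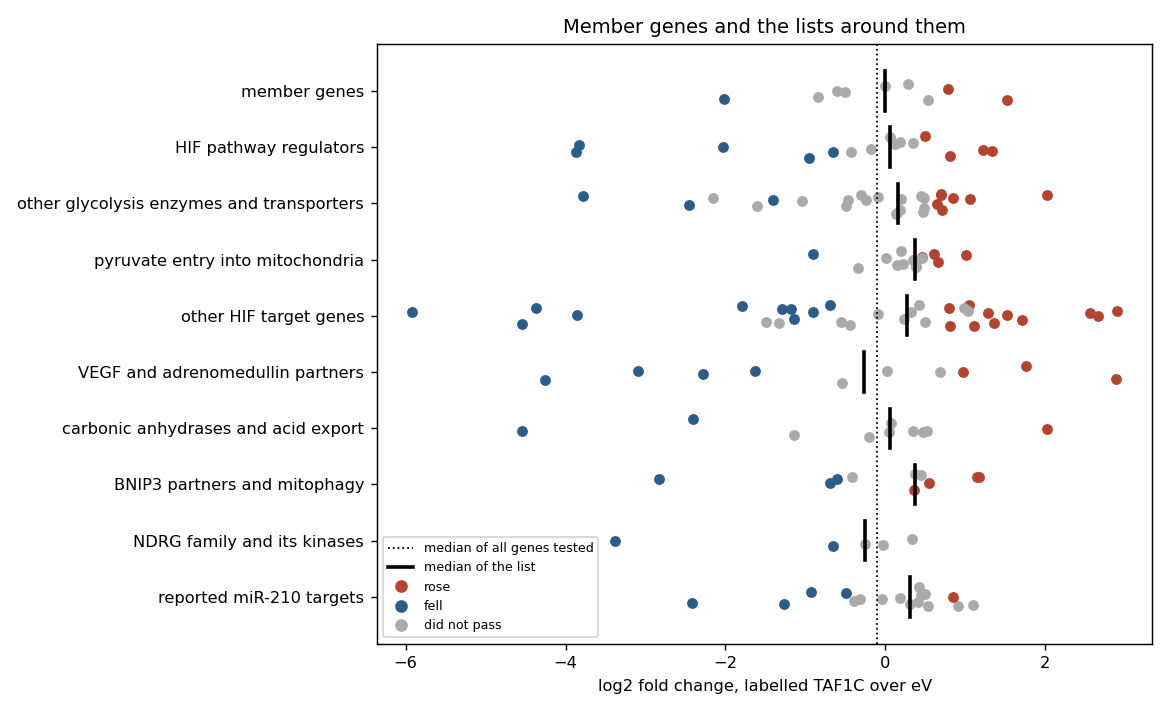
Log2 fold change (libraries labelled TAF1C over eV) of every tested gene of the 9 members and of 9 lists around them, 1 point per gene, with red for genes that rose, blue for genes that fell and grey for genes that did not pass; the bar is the list median and the dotted line the median of all genes tested, -0.10. Calls lie on both sides for the member genes and for every list but that of the NDRG family, and the medians run from -0.26 to 0.37.

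Because the eV libraries differed, each member was set against either one. With eV 2 alone 6 members rose and 1 fell, and with eV 1 alone 3 rose and 5 fell, while over all genes 29.0% rose and 29.5% fell against eV 2 alone, and 35.8% and 34.0% against eV 1 alone. ADM, ENO1 and LDHA rose and PDK1 fell against each, so 4 of 9 passed in the same direction against each, near the 41.6% of all genes. SLC2A1 and NDRG1 were negative against each without passing both tests. VEGFA and BNIP3 passed in opposite directions, 2 of 9, where 5.47% of all genes did so. The libraries labelled TAF1C lay wholly between the eV libraries for VEGFA, CA9 and BNIP3, 3 of 9, against 16.3% of all genes. Groups that did not overlap were counted in the same way: 3 of 9 members were above and 2 below in every library labelled TAF1C, against 29.8% and 34.4% of all genes. The median log2 ratio of eV 1 to eV 2 was 0.76 over the members and 0.02 over 18243 genes. These comparisons share the libraries labelled TAF1C.

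**Figure D5:**
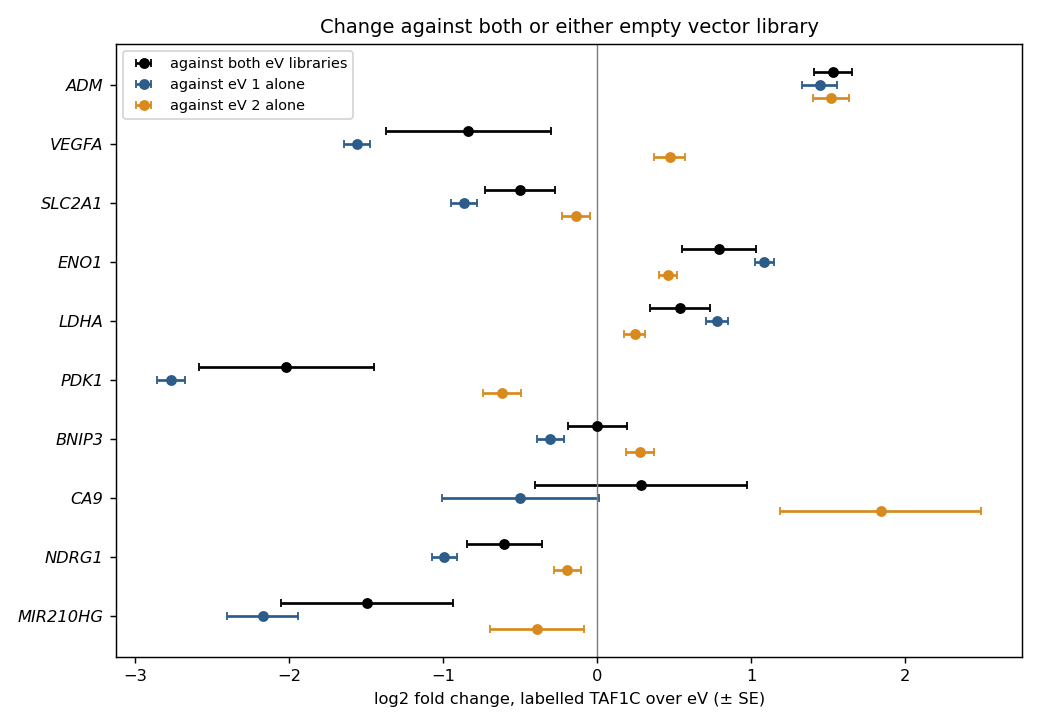
Log2 fold change (libraries labelled TAF1C over eV, horizontal axis, ± SE) of the 9 members and MIR210HG against both eV libraries (black), eV 1 alone (blue) and eV 2 alone (orange). The 3 values fall together for ADM (1.44 to 1.53), lie on both sides of 0 for VEGFA and BNIP3, and spread from -2.76 to -0.62 for PDK1.

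The members did not share 1 pattern over the 5 libraries. Likeness was measured as the root mean square difference of log2(CPM + 0.05), centred for each gene over the 5 long RNA libraries. The closest members were SLC2A1 and NDRG1, 0.0909 apart, and ENO1 and LDHA, 0.143 apart, while ADM and PDK1 were farthest, at 1.69. Among all tested genes, the pattern of ENO1 was nearest to that of PSMC5 (0.0088), LDHA to IDH3A (0.0165), ADM to SERPINB8 (0.0283), NDRG1 to TRIM7 (0.0174), SLC2A1 to CABIN1 (0.0248) and BNIP3 to PYGB (0.0143). VEGFA was nearest to DZANK1 (0.0463), CA9 to ZAN (0.0719) and PDK1 to SNX29P2 (0.0859). Within 0.1 of a member lay 610 genes for ENO1 and 744 for LDHA but 6 for PDK1, 11 for VEGFA and 4 for CA9.

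ACGTG, a form of the HIF core motif, was looked up in the start regions of the members, since the members are named as HIF targets. Windows of 300 bases, 250 before and 50 after a transcription start, were taken from RefSeq (GRCh38.p14) and searched for ACGTG on either strand, where the other strand reads CACGT. A match inside CACGTG counts on both strands as 1 site. Of 7 members searched, 4 had a match (57.1%), against 24.9% of 27305 gene symbols with a window. ADM, ENO1 and SLC2A1 had no ACGTG in this window, which says nothing of sites elsewhere, and VEGFA and NDRG1 were not searched. The letters GCGTG, which differ in the first base, were counted in the same windows but are not shown. ENO1 had 2, ADM 1, SLC2A1 1, BNIP3 4, MIR210HG 1, LDHA 1 in each window, and PDK1 and CA9 0. Matches are shown with 12 bases on each side, in capitals, on the strand of the gene.
PDK1 at chr2:172556061-172556089 (+): cctgctgcccgcCACGTccctcacgtacc
PDK1 at chr2:172556070-172556098 (+): cgccacgtccctCACGTaccactcggcag
CA9 at chr9:35673898-35673926 (+): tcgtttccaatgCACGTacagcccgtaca
BNIP3 at chr10:131982040-131982069 (-): gcgcacgcgccgCACGTGccacacgcaccc
LDHA at chr11:18394366-18394395 (+): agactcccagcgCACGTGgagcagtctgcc
LDHA at chr11:18394464-18394493 (+): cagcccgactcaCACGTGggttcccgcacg
LDHA at chr11:18394478-18394506 (+): cgtgggttcccgCACGTccgccggccccc
MIR210HG at chr11:568611-568639 (-): ctccccgggcagACGTGcagaaaagaacg
The sites of PDK1 began 17 and 8 bases before the start and overlap in the letters shown, and that of CA9 began 18 bases before it. Those of LDHA lay 185, 87 and 73 bases before the start, that of BNIP3 134 and that of MIR210HG, the host of miR-210, 170. The 4 members with ACGTG fell (PDK1) or did not pass (CA9, BNIP3, LDHA). The searched members without ACGTG rose (ADM, ENO1) or did not pass (SLC2A1). All of these without ACGTG held GCGTG, for which no share over all symbols was taken. Genes that did not pass stood on both sides, so no link of letters to direction is drawn. A match is a run of letters, and binding was not measured.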

How the data were processed

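Per the labels' protocols, the mirVana kit gave the RNA, and libraries came from NEBNext kits, with ribosomal depletion for long RNA. The submitters' processing notes name the build hg19, HISAT2, DESeq2, Cufflinks 2.2.1, Bowtie2 2.2.4 and Trimmomatic 0.36, without roles. The deposited long RNA values are raw read counts per gene. The deposited miRNA signal is read counts over a factor of the authors' that differs between libraries, as the steps in the values show, and was not turned back into counts. Rows with the same symbol were summed. Counts were tested with edgeR 4.0.16 (TMM scaling, at least 1 CPM in at least 2 libraries, quasi-likelihood test), and the miRNA signal with limma 3.58.1 with a trend on log2(signal + 1), for miRNAs above 0 in all libraries and at least 10 in at least 2. The SE of an edgeR change is the size of the log2 fold change over the square root of that test's F statistic. Benjamini-Hochberg adjustment ran over all features of each assay, two-sided, at 0.05, with no covariate. Both fits were tested on simulated data with the same spread in both groups. That simulation does not cover the wider eV pair of the long RNA. Members and lists were chosen with earlier results of these data known. Up to 4 genes with the smallest adjusted p per list are named, with the close paralogs and direct regulators of members that the rule lists, such as HIF1A and EGLN3; 1 gene the rule names is not reported here. Those beyond the rule (the remaining glycolysis genes that rose, PPFIA4, RORA, KDM3A, MXI1, ISCU) were named after their values were seen. DESeq2 1.42.0 and limma voom served as alternatives for the long RNA. piRNA files were not used.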

Additional observations from a re-analysis of the deposited data

How the results depend on the processing

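The fall of hsa-miR-210-5p passed under all 11 alternatives (log2 fold change -1.52 to -1.31 without 1 library, -1.65 with equal totals, -1.39 with the replicate block; limma adjusted p at most 0.0062), and the rise of ADM under all 13. Of the member genes 2 rose and 1 fell. The number raised was 1 with RLE scaling, no filter, filterByExpr or the replicate block, and 1 to 6 without 1 library, with the highest without eV 1. The number lowered was 0 with limma voom and 0 to 5 without 1 library, with the highest without eV 2. Genes called over all, 7080, were 4087 with the replicate block and 3095 to 11632 without 1 library. The share of these calls that were rises was 41.3%, against 29.7% with no filter. Directions turned for VEGFA (0.47 without eV 1, -1.56 without eV 2), CA9 (-0.0125 by library totals, -0.50 without eV 2, 1.84 without eV 1), BNIP3 (-0.25 by library totals, -0.080 by upper quartile, -0.02 without TAF1C 1, -0.31 without eV 2, 0.28 without eV 1), CA12 (0.39 without eV 2, -5.59 without eV 1) and LDHB (-0.095 without eV 1, 1.15 without eV 2); the cause was not tested. Over the members and named genes, 656 gene and alternative pairs kept direction and side of the threshold, 94 lost the call, 19 gained it and 9 turned.

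The block pairs replicates 1 and 2 of the labels; the correlation of their differences over genes was 0.102 for long RNA and 0.0263 for miRNA, from 1 pair of differences, so the numbers are not taken to pair the samples. Among the genes named, the block ended the calls of ENO1, PDP1, PDK4, PC, MPC1, SLC4A4, CA12, BNIP3L, NDRG4, HIF1A, HK1, GPI, ALDOA, GAPDH and PGAM1. A count test of the miRNA reads was planned and not run, and the signal was tested as deposited. With 2 eV libraries the spread of that group rests on 1 difference, and CA9, with 8 to 40 counts, is limited by depth.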
